A study of Mus musculus with 17 samples.

Results

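The RNAs described here are the plasma transcripts of 8 genes of striated muscle in the mouse: titin (Ttn), the fast myosin heavy chains Myh4, Myh1 and Myh2, skeletal alpha-actin (Acta1), muscle creatine kinase (Ckm), fast troponin T (Tnnt3) and the fast regulatory light chain (Mylpf). They were taken by gene symbol as genes of the sarcomere and of muscle metabolism, and all 8 were found among the 49585 genes in the files. The cfRNA libraries came from the Mouse Habitat Unit-1 mission to the International Space Station. The question was which plasma RNAs differed with gravity and with the flight itself. All animals were wild-type C57BL/6J mice, with a labelled age of 13 weeks, and 1 library was made from the plasma of each mouse. The MG group (n = 6) flew in microgravity, the AG group (n = 6) flew on a rotating platform that gave artificial 1-G, and the GC group (n = 5) stayed on the ground. MG against AG therefore compares gravity within flight. MG against GC holds gravity together with launch, flight and return. AG against GC holds launch, flight and return, with housing at 1-G in both groups. Each group enters 2 of the 3 comparisons.

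Skeletal muscle contracts when myosin heads of the thick filament pull on actin of the thin filament. Troponin makes this depend on calcium, titin runs along the sarcomere as a spring, and creatine kinase rebuilds ATP from phosphocreatine. Each fast fiber type is known by its myosin, with Myh4 in type IIb, Myh1 in type IIx and Myh2 in type IIa fibers, and unloaded muscle is known to lose mass. Plasma holds little RNA from solid tissue, so a muscle mRNA appears there as a few short fragments among RNAs of blood cells.

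The libraries held between 84657 and 277682 counted reads. They were made with a small RNA kit, and Tmem38b, Polr2m, Lars2 and Rn18s-rs5 took between 70.6% and 91.7% of the counts. A single read stood for 3.601 to 11.8 CPM (a gene's reads per 1000000 counted reads of its library). A count of 0 in a library allowed a level of up to 10.8 to 35.4 CPM, taking 3 reads as its limit. Such limits and the intervals given here cover counting error alone. No batch is named in the labels.

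The 3 fast myosin heavy chain genes lie next to each other on the plus strand of chromosome 11 (GRCm38, the assembly also called mm10), with Myh2 at 67171027 to 67197517, Myh1 at 67200052 to 67224575 and Myh4 at 67238029 to 67260446. Their coding sequences were 91.1% identical between Myh1 and Myh2, 90.2% between Myh1 and Myh4 and 88.2% between Myh2 and Myh4. Reads were 36 bases long from each end, and 40.7% of all stretches of that length in Myh1 also stood in another gene, against 36.9% in Myh2 and 26.5% in Myh4. The first set of sequences shows a coding stretch of 1 read length that is the same in all 3 genes, so that a read from it names none of them. It lies in exon 4 of Myh1 (chr11:67202264-67202299), exon 4 of Myh2 (chr11:67173515-67173550) and exon 3 of Myh4 (chr11:67241010-67241045).
Myh1, Myh2 and Myh4: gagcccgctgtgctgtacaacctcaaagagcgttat
The second set shows a stretch where Myh1 and Myh4 differ at 11 of 36 bases, so that a read from it tells them apart. It lies in exon 22 of Myh1 (chr11:67211466-67211501) and exon 21 of Myh4 (chr11:67250889-67250924), and capitals mark the positions at which these genes differ.
Myh1: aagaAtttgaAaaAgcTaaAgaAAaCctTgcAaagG
Myh4: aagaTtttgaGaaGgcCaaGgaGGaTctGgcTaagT
How reads with several matches were counted is not given in the sources used here, so the values of single myosin genes are uncertain by that. The other 5 genes shared less with other genes: 13.2% of the stretches of Ckm, all of them with A930016O22Rik, 3.54% of those of Acta1, 0.263% of those of Ttn and 0 of those of Tnnt3 and Mylpf.

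Muscle mRNAs were rare in plasma. The 8 genes had 257 reads together over the 17 libraries, which was 0.00935% of all counts, and 6 of the 8 had at least 1 read. Ttn was found in 17 libraries with 149 reads, Myh4 in 13 libraries with 59, Myh1 in 6 with 20, Ckm in 6 with 15 and Acta1 in 9 with 13. Tnnt3 had 1 read, and Myh2 and Mylpf had none.

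**Figure D1:**
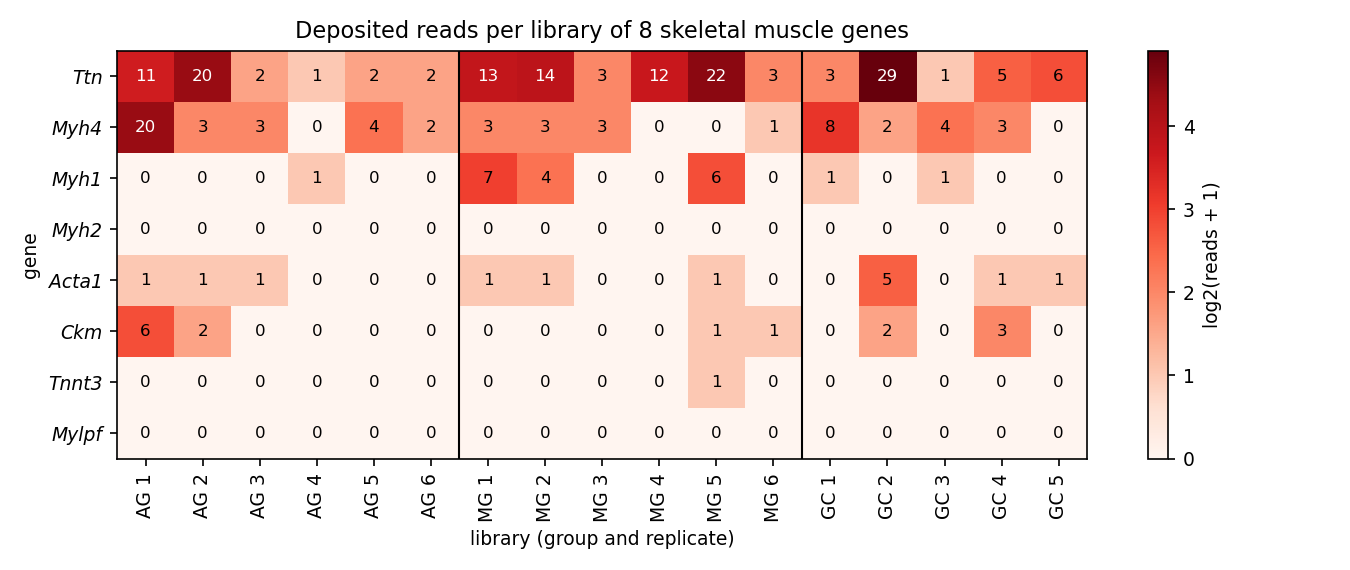
Deposited reads of the 8 genes (rows) in each of the 17 libraries (columns, by group and replicate). Numbers are reads and color is log2(reads + 1). Ttn is the only row with a read in every library, and the Myh1 reads of MG stand in MG 1, MG 2 and MG 5.

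Ttn led by reads but not per length. The union of its exons covers 116825 bases, against 6016 for Myh4 and 1536 for Acta1. On the per-length scale of RPKM (reads scaled to gene length and to mapped reads, as the authors deposited it) Ttn made up 58.0% of the muscle reads but 3.95% of the summed RPKM. The order of levels per length, as the mean over the 17 libraries, was Myh4 at 0.200 RPKM, Acta1 at 0.131, Ckm at 0.0819, Myh1 at 0.0546, Ttn at 0.0195 and Tnnt3 at 0.00706. Myh4 and Acta1, first in that order, rest on 59 and 13 reads, and within each group neighbours in the order differed by less than the larger of their SDs. In AG, Myh4 was at 0.283 ± 0.436 RPKM and Acta1 at 0.0827 ± 0.0968, and in GC they were at 0.236 ± 0.339 and 0.234 ± 0.354. The mean RPKM of Myh4 was above that of 93.8% of the 12605 genes with a read, while Ttn, at 52.1%, was close to the median gene (0.0182 RPKM).

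The defining genes of fast muscle were thus only in part present. The fast myosin of type IIa fibers and the fast regulatory light chain were at 0 reads in all libraries. For Myh2 and Mylpf the pooled counts allowed up to 2.61 CPM in AG, 3.58 CPM in MG and 3.93 CPM in GC. Of genes made mainly in heart, Myh6 (atrial and adult mouse ventricular myosin) had 83 reads in 11 libraries, Actc1 (cardiac actin) 58 in 9 and Tnni3 (cardiac troponin I) 26 in 8. This group of 7 heart genes, put together after their values were seen, had 228 reads, against 79 reads of the 3 fast myosins.

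Ttn, on chromosome 2 (76703980 to 76982547, minus strand), encodes the spring protein of skeletal and heart muscle alike. The 6 MG libraries held 13, 14, 3, 12, 22 and 3 Ttn reads, the 6 AG libraries 11, 20, 2, 1, 2 and 2, and the 5 GC libraries 3, 29, 1, 5 and 6. In CPM these were 87.1 ± 54.2 in MG (mean ± SD, n = 6, from 13.4 to 145.6 with a median of 108), 32.5 ± 34.5 in AG (n = 6, from 5.27 to 80.0 with a median of 14.7) and 53.5 ± 63.4 in GC (n = 5, at 35.4, 165, 7.82, 25.6 and 33.3). The MG libraries 1, 2, 4 and 5 were above 100 CPM, as was GC 2, while MG 3 and MG 6 lay among the low libraries of AG and GC. The groups therefore overlapped. In plasma, fewer muscle cells that release RNA and less RNA released per cell cannot be told apart.

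Myh4, the myosin of the fastest fibers, was spread over all groups. Its reads were 20, 3, 3, 0, 4 and 2 in AG, 3, 3, 3, 0, 0 and 1 in MG, and 8, 2, 4, 3 and 0 in GC. In CPM this gave 33.8 ± 50.0 in AG (n = 6, from 0 to 133 with a median of 12.01), 13.8 ± 13.5 in MG (n = 6, from 0 to 26.4 with a median of 15.2) and 30.5 ± 37.5 in GC (n = 5, at 94.5, 11.4, 31.3, 15.4 and 0). AG 1 held 20 of the 32 reads of its group. The medians of the 3 groups lay between 12.01 and 15.4 CPM, and the groups overlapped over the whole range of MG.

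Myh1, the myosin of type IIx fibers, was found mostly in MG. MG 1 held 7 reads, MG 2 held 4 and MG 5 held 6, and MG 3, MG 4 and MG 6 held none. AG had 1 read in its 6 libraries, in AG 4, and GC had 2 reads, in GC 1 and GC 3. In CPM the mean was 22.6 ± 26.4 in MG (n = 6, from 0 to 61.5 with a median of 17.3), 0.878 ± 2.15 in AG (n = 6, from 0 to 5.27) and 3.93 ± 5.56 in GC (n = 5, at 11.8, 0, 7.82, 0 and 0). The 3 MG libraries with reads were above every other library, while the other 3 were level with the 5 AG libraries at 0. Pooled by group, the ratio of MG to AG was 23.4 (95% interval 3.66 to 976, exact, from 17 reads against 1) and that of MG to GC was 7.75 (1.84 to 69.2, from 17 against 2), and these intervals do not hold the spread between mice.

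As 1 family, the fast myosins had group means that lay within the SD of each group. Myh1, Myh2 and Myh4 together had 27 reads in MG, 33 in AG and 19 in GC, or 36.4 ± 33.8 CPM in MG (n = 6), 34.6 ± 49.3 in AG (n = 6) and 34.4 ± 42.6 in GC (n = 5). The makeup of these reads differed, with Myh1 giving 17 of 27 in MG, 1 of 33 in AG and 2 of 19 in GC. In MG 5 all 6 fast myosin reads were assigned to Myh1, in MG 1 it was 7 of 10 and in MG 2 it was 4 of 7. How many of these reads came from shared stretches was not tested.

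Acta1, the actin of the skeletal thin filament (chromosome 8, 123891769 to 123894751, minus strand), never passed 1 read per library outside GC 2, which held 5. Its reads were 1, 1, 1, 0, 0 and 0 in AG, 1, 1, 0, 0, 1 and 0 in MG, and 0, 5, 0, 1 and 1 in GC, and the mean was 2.38 ± 2.81 CPM in AG (n = 6), 4.01 ± 4.46 in MG (n = 6) and 7.83 ± 11.9 in GC (n = 5). Ckm (chromosome 7, 19404776 to 19422841, plus strand), the creatine kinase of skeletal and heart muscle, had 6 reads in AG 1, 3 in GC 4, 2 each in AG 2 and GC 2, 1 each in MG 5 and MG 6, and none in the remaining 11 libraries. Its mean was 7.99 ± 15.98 CPM in AG (n = 6), 1.85 ± 2.94 in MG (n = 6) and 5.35 ± 7.47 in GC (n = 5). The single Tnnt3 read (chromosome 7, 142498836 to 142516009, plus strand) was in MG 5, the library with most kinds of muscle mRNA, 5 of the 8. Mylpf is also on chromosome 7 (127208890 to 127214298, plus strand).

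Summed over the 8 genes, the libraries spread by 24.0 times, from 10.5 CPM in AG 4 to 253 CPM in AG 1. The sum was 130 ± 82.8 CPM in MG (n = 6, from 22.4 to 211), 77.5 ± 92.3 in AG (n = 6, from 10.5 to 253) and 101.1 ± 76.4 in GC (n = 5, at 142, 216, 46.9, 61.5 and 38.9). Each group held both low and high libraries, and the differences between group means were smaller than the SD of each group. MG 4 drew its 12 reads from Ttn alone, and AG 1 drew 28.9% of its reads from Ttn.

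**Figure D2:**
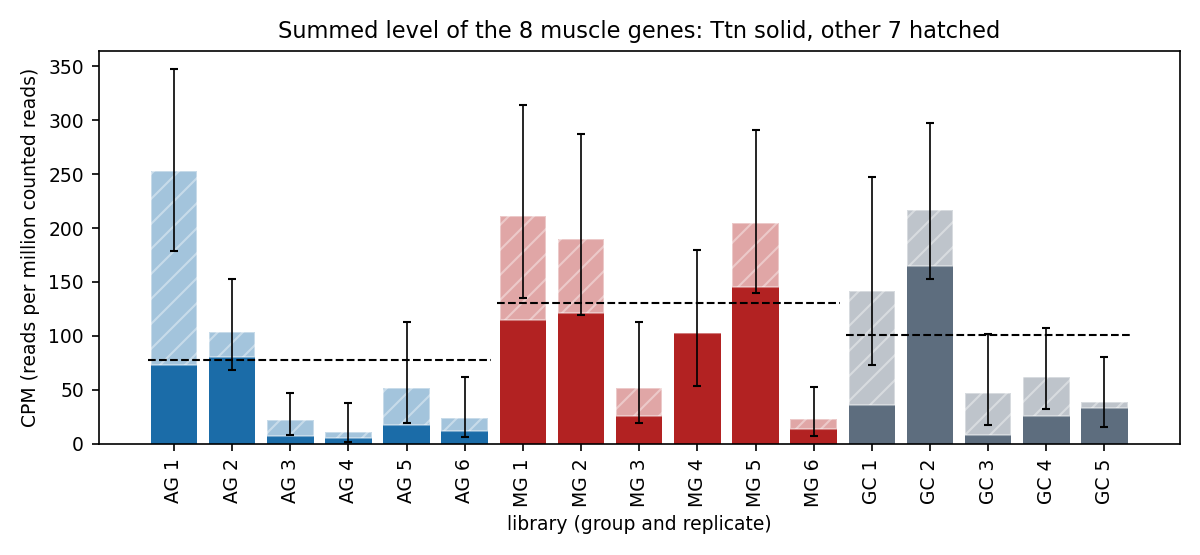
Summed level of the 8 genes in each library, in CPM, with the share of Ttn solid and that of the other 7 hatched. Error bars are exact 95% binomial intervals of the summed reads and dashed lines are group means (77.5, 130 and 101.1 CPM). Each group has low and high libraries, and the highest, AG 1, has most of its level outside Ttn.

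Which group had the higher sum depended on the scaling. By CPM the ratio of group means was 1.68 for MG to AG, 1.29 for MG to GC and 0.767 for AG to GC. The 4 dominant genes held 86.9% to 91.7% of the counts in AG, but 70.6% to 83.5% in MG and 76.9% to 83.1% in GC, and with the counts outside them as the denominator the ratios were 0.793, 1.12 and 1.41. With TMM scaling (trimmed mean of M values, of edgeR) they were 0.917, 1.08 and 1.17, with summed RPKM 0.703, 0.630 and 0.896, and in CPM without Ttn 0.963, 0.910 and 0.945. The RPKM values imply totals of mapped reads from 1596032 to 9796884, the largest in MG 4, where the Ttn level of 103 CPM corresponded to 0.0105 RPKM, against 114 CPM and 0.0359 RPKM in MG 1. No test was made on the sum.

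Gene by gene, the counts of the groups were compared by edgeR's quasi-likelihood test in 1 fit over all 17 libraries and 6270 genes that had at least 5 reads. Ttn, Myh4, Myh1, Acta1 and Ckm entered this test, and Myh2, Tnnt3 and Mylpf did not. Between MG and AG, 0 of the 5 genes had an adjusted p (Benjamini-Hochberg over the 6270 genes) under 0.05, where 0.0957% of all tested genes did. At an unadjusted p under 0.05 with a fold change over 1.5, 2 of the 5 passed: Myh1, higher in MG, and Myh4, lower in MG. This was the criterion of the study, which applied it with a test of CLC Genomics Workbench. Of all tested genes 13.1% passed this criterion, 9.87% higher in MG and 3.19% lower (19.3% and 1.52% without TMM scaling). The exact test of edgeR also passed both, where 1.88% of all tested genes passed higher in MG and 0.383% lower. DESeq2 passed Myh4 alone, where 1.16% and 0.813% did. By limma on log2(RPKM + 1) neither passed, where 0.223% and 0.0797% did. Neither passed the quasi-likelihood test with a term for the replicate number, where 1.88% and 0.447% did. Without TMM scaling the quasi-likelihood test passed Myh1 but not Myh4 (log2 fold change -1.27).

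The log2 fold change of Myh1 between MG and AG was 2.95 (SE 1.25, unadjusted p = 0.0180, adjusted p = 0.339 by edgeR), and that of Myh4 was -1.89 (SE 0.79, unadjusted p = 0.0165, adjusted p = 0.339 by edgeR). Without AG 1 the value of Myh4 was -0.83, and it no longer passed the unadjusted criterion; neither did it without MG 4 or MG 5. Myh1 did not pass it without MG 1, and stood at 4.35 without AG 4, which held the 1 read of AG. Ttn differed by 0.43 (SE 0.66), Acta1 by -0.32 (SE 1.27) and Ckm by -1.95 (SE 1.20), with adjusted p of 0.892, 0.978 and 0.524 by edgeR. Ckm stood at -0.37 without AG 1. The median of all tested genes stood at 0.35 in this comparison, close to the value of Ttn, but without AG 2 Ttn stood at 1.26 and that median at 0.44. Without TMM scaling the median was 1.07 and Ttn stood at 1.38.

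Between MG and GC, 0 of the 5 genes passed either threshold, where 0.159% of all tested genes passed the adjusted one and 13.7% the unadjusted one (9.79% higher in MG and 3.86% lower). By the exact test of edgeR, DESeq2 and limma, too, 0 of the 5 passed either one. The log2 fold change was 2.23 for Myh1 (SE 1.22, unadjusted p = 0.0670, adjusted p = 0.422 by edgeR), -1.07 for Myh4 (SE 0.84), 0.39 for Ttn (SE 0.68), -1.20 for Acta1 (SE 1.24) and -1.34 for Ckm (SE 1.25). The MG libraries are the same as in the comparison with AG, so the like values of Myh1 in both are not independent. Ttn stood at 1.31 without GC 2, which held 29 of the 44 GC reads. Acta1 stood at -0.20 without GC 2, Ckm at -0.32 without GC 4 and -2.01 without MG 6, and Myh4 at -0.43 without GC 1.

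Between AG and GC, 0 of the 5 genes passed either threshold with any of the 4 tools, where 0% of all tested genes passed the adjusted one and 12.2% the unadjusted one by the quasi-likelihood test (5.77% higher in AG and 6.44% lower, or 3.19% and 11.8% without TMM scaling). The log2 fold change was -0.04 for Ttn (SE 0.69), 0.82 for Myh4 (SE 0.78), -0.72 for Myh1 (SE 1.38), -0.88 for Acta1 (SE 1.27) and 0.61 for Ckm (SE 1.18), and the adjusted p was at least 0.739 by edgeR. Myh4 stood at -0.22 and Ckm at -1.02 without AG 1, and Ttn stood at 0.83 and Acta1 at 0.04 without GC 2, so that the sign of these values rested on 1 library each. Ttn stood at -0.92 without AG 2, Myh1 at -2.04 without AG 4, Myh4 at 1.41 without GC 1 and Ckm at 1.51 without GC 4. A difference that misses the threshold at these depths does not show that the groups were alike.

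**Figure D3:**
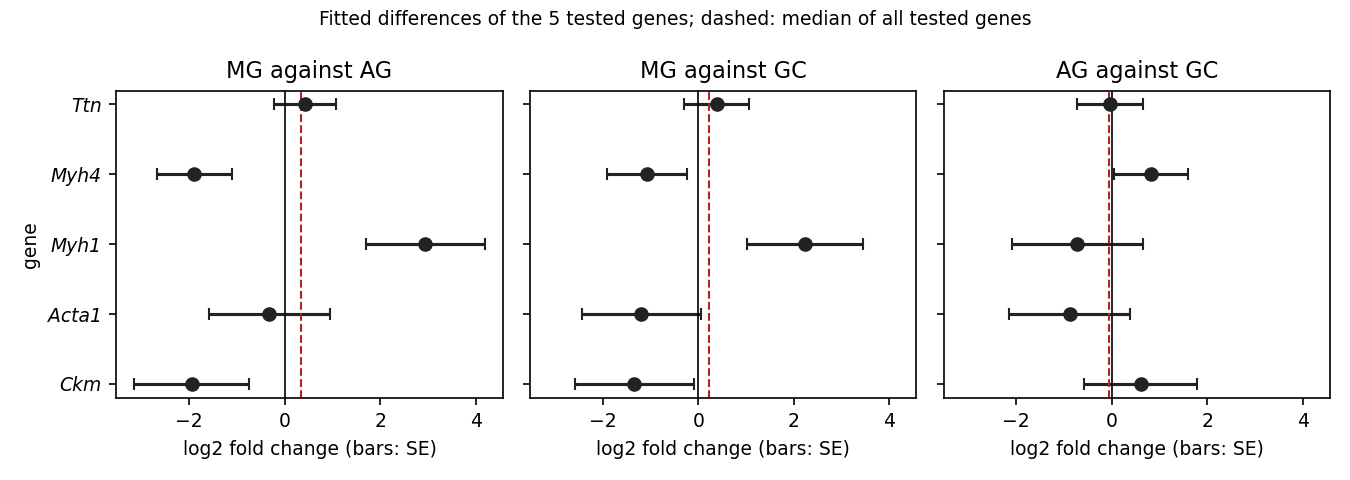
Log2 fold change of the 5 tested genes in the 3 comparisons, from the quasi-likelihood fit of edgeR. Bars are standard errors and the dashed line is the median of all 6270 tested genes (0.35, 0.22 and -0.06). Myh1 (2.95) and Myh4 (-1.89) stand farthest from 0 on opposite sides in MG against AG together with Ckm (-1.95).

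Other genes of the muscle fiber were just as sparse. Of 17 further fast or shared sarcomere genes, 13 had a read (177 reads in all), led by Tpm1 (tropomyosin, 75 reads, also made outside muscle), Tpm2 (26) and Myom1 (myomesin, 18), and Mybpc2, Myoz1, Mybpc1 and Myot were at 0. Between MG and AG none of the 9 tested passed the adjusted threshold, and 1 passed the unadjusted criterion higher in MG and 2 lower, where 9.87% and 3.19% of all tested genes did. Named after their values were seen, these were the fast-fiber actinin Actn3 (4 reads, all in MG 1, against 0 in AG), the fast troponin I Tnni2 (0 reads in MG against 5 in AG) and Myom2 (0 against 3). Tnni2 and Myom2 also passed it lower in MG than in GC (unadjusted p = 0.0410 and 0.0466, adjusted p = 0.331 and 0.353 by edgeR), where 3.86% of all tested genes did, and the same MG libraries enter both pairs. The actinin gene Actn2 passed it lower in AG than in GC (unadjusted p = 0.0298, adjusted p = 0.401 by edgeR), where 6.44% did. The median log2 fold change of the 9 was -0.30 in MG against AG, -0.89 in MG against GC and -0.68 in AG against GC, beside medians of 0.35, 0.22 and -0.06 over all tested genes. A fitted value depends on the prior count where 1 group has 0 reads. With such genes set to the limit of 3 reads over the group, and those with at most 3 reads in the other group left out, the medians were -0.30, -0.83 and -0.16. With 1 library left out, the fitted median was 0.07 in MG against AG without AG 5 and 0.07 in AG against GC without GC 4. In both settings 8 genes rather than 9 had enough reads to be tested, so the change of sign is not over the same genes. The calls rested on single libraries too. In MG against AG the number higher was 0 without AG 1, AG 3, AG 4, AG 5, AG 6, MG 1 or GC 2, and the number lower was 1 without AG 2, AG 5 or GC 2. In MG against GC the number lower stayed at 2 without GC 4 or GC 5, and was 0 without MG 1, MG 2, MG 3, MG 5 or MG 6 and 1 without any other library. In AG against GC the 1 lower call was 0 without GC 4 and 2 without AG 1 or AG 2.

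Genes of calcium release and of energy supply added few reads. Of 10 calcium handling genes 7 had a read (25 reads in all, with Ryr1 at 7, Pvalb at 6 and Atp2a1 and Srl at 4 each). Both tested ones, Ryr1 and Pvalb, had 0 reads in GC and missed the adjusted threshold in every pair, and Pvalb, the calcium buffer of fast fibers, passed the unadjusted criterion higher in AG (4 reads) than in GC, where 5.77% of all tested genes did. Of 13 energy genes 10 had a read (131 in all), led by Aldoa (aldolase, 66, also made outside muscle), the oxygen store Mb (21), Pygm (12) and Pfkm (7). Their 7 tested members had a median of -0.53 in MG against AG, -1.21 in MG against GC and -0.68 in AG against GC, or -0.20, -0.78 and -0.68 with the same limit, and none passed the adjusted threshold. Without AG 2 the fitted median was 0.31 in MG against AG and -1.49 in AG against GC. The muscle enolase Eno3 and the phosphorylase kinase subunit Phka1 passed the unadjusted criterion in MG against GC, both with 0 reads in MG and 4 in GC, so that 2 of the 7 were lower in MG where 3.86% of all tested genes were, and 1 of 6 without AG 3, GC 2, GC 3 or GC 4.

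Slow and cardiac sarcomere genes had more reads than the 8 genes themselves, 335 against 257, and 12 of 14 had a read (Tnni1 and Nppb had none). After Myh6 and Actc1 the list was led by Tpm3 (49 reads, also made outside muscle) and Tnni3. Its summed level ranged from 5.27 to 176 CPM in AG, 25.7 to 466 in MG and 46.9 to 553 in GC. No tested gene of the 10 passed the adjusted threshold in any pair. Its median was 0.26 in MG against AG, -0.84 in MG against GC with 0 of 10 above 0, and -1.30 in AG against GC with 0 of 10 above 0, and the limit of 3 reads left these medians unchanged. The natriuretic peptide gene Nppa (0 reads in AG, 6 in MG and 11 in GC) passed the unadjusted criterion in MG against AG and in AG against GC, as did the cardiac troponin T gene Tnnt2 in the latter (log2 fold change -2.76). These were 1 of 10 higher in MG, where 9.87% of all tested genes were, and 2 of 10 lower in AG, where 6.44% were. GC 2 held 97 of the 173 GC reads of the list, AG 2 held 44 of the 59 AG reads and MG 2 held 54 of the 103 MG reads. Without GC 2 the medians were -0.23 in MG against GC, with 4 of 10 above 0, and -0.75 in AG against GC, with 2 of 10 above 0. Without AG 2 the median was 2.35 in MG against AG, with 6 of 10 past the unadjusted criterion, and -3.49 in AG against GC, with 7 of 10 past it. Without MG 2 it was -0.38 in MG against AG and -2.13 in MG against GC, with 5 of 10 past it in the latter. Of 8 platelet markers, 1 was above 0 in MG against GC and 0 in AG against GC (medians -0.34 and -0.66), and their part in these values was not tested.

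The 7 heart genes and Ttn were both high in GC 2, MG 2 and MG 5, and some libraries were high in only 1 of them. The summed heart level was 427 CPM in GC 2, 354 in MG 2, 179 in GC 4, 128 in AG 2 and 99.3 in MG 5, and at most 59.1 CPM in the other 12, with a range of 0 to 128 in AG, 0 to 354 in MG and 15.6 to 427 in GC. Across the 17 libraries Spearman's rho between Ttn and the heart sum was 0.69 in CPM, and 0.66 when both were taken as shares of the counts outside the 4 dominant genes. For Myh4 and the heart sum it was 0.21 and -0.02. MG 1 had 13 Ttn reads and 3 heart reads, MG 4 had 12 Ttn reads and no heart read, and GC 4 had 35 heart reads and 5 Ttn reads. These values share each library's denominator, so they are given as a description, and the part of the heart in the Ttn reads was not tested.

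**Figure D4:**
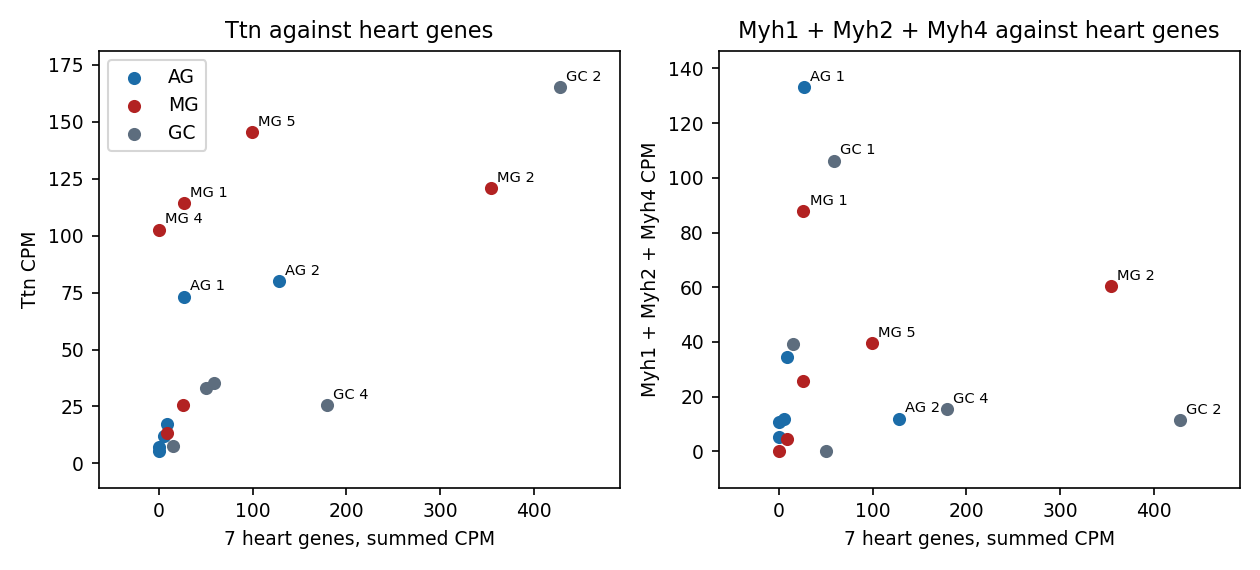
Level of Ttn (left) and of Myh1, Myh2 and Myh4 together (right) against the summed level of 7 heart genes, both in CPM, 1 point per library and colored by group. GC 2 and MG 2 are high in both Ttn and heart genes, whereas AG 1, GC 1 and MG 1, highest in the fast myosins, are at 26.4 to 59.1 CPM of heart genes.

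Other sources of plasma RNA also moved with Ttn in CPM. Spearman's rho over the 17 libraries was 0.75 with the smooth muscle markers, 0.64 with the platelet markers and 0.75 with the percentage of counts outside the 4 dominant genes. As shares of the counts outside those genes it was 0.37 with smooth muscle and 0.28 with platelets. Smooth muscle markers (7 of 8 with a read, Cnn1 at 0, 515 reads led by Myl9 with 403) ranged from 17.3 to 172 CPM in AG, 58.2 to 390 in MG and 97.4 to 387 in GC. This sum is mostly the level of Myl9, while Myh11 had 20 reads and Tagln 10. Myl9 had 92 reads in AG, 146 in MG and 165 in GC, and the platelet gene Ppbp had 1078, 1756 and 2129. Whether the Myl9 reads came from smooth muscle was not tested. By the unadjusted criterion Acta2 and Tagln were higher in MG than in AG, and Myh11 was higher in MG, and in AG, than in GC, where 9.87%, 9.79% and 5.77% of all tested genes were higher in these pairs. Of the 16 MG reads of Myh11, 12 were in MG 4. In AG against GC its call, from 4 reads against 0, was lost without AG 1, AG 6 or any 1 GC library, and in MG against AG the count of 2 was 1 without AG 3, AG 4, AG 5, MG 2, MG 4 or MG 5. Platelet markers (8 of 8, 6599 reads led by Ppbp with 4963) ranged from 147 to 2312 CPM in AG, 574 to 5592 in MG and 625 to 5658 in GC. Myh4 was nearer to the red cell markers (rho 0.47, and 0.55 as shares; 10 of 10, 28787 reads led by Hba-a2), which ranged from 5657 to 19173 CPM in AG, 1600 to 20017 in MG and 4244 to 30358 in GC, and its rho with Ttn was 0.02. In MG against AG, the pair in which Myh4 passed the unadjusted criterion, 4 of the 10 red cell markers passed it lower in MG, where 3.19% of all tested genes did, with a median of -1.17 and 0 of 10 above 0. That count was 2 without AG 1, AG 4 or MG 5 and up to 6 (without MG 3) with each library left out, and in CPM the mean sum of the red cell markers was not lower in MG (12068) than in AG (10424). The part of these markers in the muscle values was not tested.

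Among 578 genes with a count in at least 15 libraries, those most like the sum of the 8 genes in CPM over the 17 libraries were the ribosomal protein gene Rps13 (Spearman's rho 0.84), the ubiquitin gene Ubb (0.74), the spectrin gene Sptbn1 (0.74), Gm42031 (0.73) and Gm20732 (0.72). None of these is a gene of the sarcomere.

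Muscle microRNAs were looked for beside the mRNAs, since the libraries were made with a small RNA kit. All 11 of the listed microRNA genes found in the files had a count of 0, as had all 1169 microRNA genes, although 68 of these had an RPKM above 0. The reads behind the RPKM were computed back from the gene length and the total it implies, and 99.0% of 3326 such values came within 0.05 of a whole number. On this scale Mir1a-1 had 7 reads in AG 1, 10 in AG 2, 2 in AG 3 and 1 each in GC 1, GC 2 and GC 4, with 0 in the 6 MG libraries. Mir133a-2 had 23 reads in AG 2 and 3 in AG 3 and 0 elsewhere, and Mir206 had 3 reads in MG 4 and 1 in GC 4. The other 8 were at 0.

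miR-1 is made in heart and skeletal muscle and miR-206 mainly in skeletal muscle. A mature sequence of each gene is shown, the 3p arm for Mir206 and the 5p arm for Mir1a-1 (RefSeq, GRCm38.p6, plus strand; Mir206 at chr1:20679055-20679076 and Mir1a-1 at chr2:180389057-180389079), with capitals for the seed, bases 2 to 8. The reads are given per gene and do not tell the arms apart. Of the genes with reads, 2 of 3 had an entry in the table used, and for Mir1a-1 the 3p arm, which is what miR-1 usually means, is not shown.
mmu-miR-206-3p: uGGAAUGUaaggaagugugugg
mmu-miR-1a-1-5p: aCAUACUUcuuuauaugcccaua
No test was made on these values, which lie outside the count column.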

How the data were processed

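Plasma cfRNA of 17 mice was analysed from the tables the authors deposited, 1 per mouse. The authors made small RNA libraries, sequenced pairs of 36 bases and mapped them in CLC Genomics Workbench to mm10, the build that the submitters' processing notes also name. The deposited count column gives raw reads of each gene. For the RPKM column the authors' software divided reads by gene length and by mapped reads, and the TPM column deposited beside it was not used for a result. The strand setting and the handling of multiple matches are not given in the sources used here. For 579 genes the count was 0 and the RPKM above 0.

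Groups were taken from the sample titles. Counts of genes with at least 5 reads over all libraries were fitted in R 4.3.3 with edgeR 4.0.16 (TMM, quasi-likelihood, 17 libraries in 1 fit without covariates), with Benjamini-Hochberg adjustment over 6270 genes. The common biological coefficient of variation was 0.941. Alternatives changed the scaling, the filter, the genes and libraries in the fit and the test (edgeR's exact test, DESeq2 1.42.0, limma 3.58.1 on log2(RPKM + 1)), and left out each library in turn. For the other gene lists, leaving out libraries was added after seeing the data. The scripts were tested on simulated counts. Intervals are exact binomial ones (scipy 1.17.1, Python 3.11.15). Gene positions, exon unions and shared stretches are from GENCODE M21 on GRCm38.

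The muscle genes and all lists were chosen with earlier results of these data known. All 8 genes are named, as are up to 4 genes of each other list with most reads and the 5 genes most alike to the sum by Spearman's rho. A further gene given by the rule is not reported here. Deviations of libraries with the same number in different groups had correlations from -0.24 to 0.21 over 579 genes (16 pairs, 7 above 0.1). They were not treated as pairs, and whether the numbers stand for a pairing was not tested. No library was a duplicate of another in its group: over 40 pairs, chi-square divided by its degrees of freedom was at least 5.46.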

Additional observations from a re-analysis of the deposited data

Results flagged for a closer look

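In groups of 4 to 10 samples, a library is listed where its gap to the nearest of the others took up more of the group's range than Dixon's 95% critical value. Of 28 sets of values tested, 10 had such a library. For normally distributed values chance gives about 1.4, a rate that cannot be read for sets of few reads, where 1 read against 0 is always listed. For the muscle genes these were Ttn in GC 2 (165 CPM, against at most 35.4 in the other GC libraries), Acta1 in GC 2 (28.5 CPM from 5 reads, against at most 5.55), Myh4 in AG 1 (133 CPM, against at most 34.6) and Ckm in AG 1 (39.9 CPM from 6 reads, against at most 8.001). Myh1 in AG 4 (5.27 CPM) and Tnnt3 in MG 5 (6.62 CPM) each rested on 1 read where the other libraries of the group had none. The summed level of slow and cardiac sarcomere genes was far above the rest in AG 2 (176 CPM, against at most 46.6) and in MG 2 (466 CPM, against at most 159). That of the liver markers was so in AG 6 (1545 CPM, against at most 182) and in MG 6 (2388 CPM, against at most 675).

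MicroRNA reads recovered from RPKM stood above the GC level, where the count column that all comparisons used was 0. Mir1a-1 had 7, 10 and 2 reads in AG 1, AG 2 and AG 3, against at most 1 in GC. Mir133a-2 had 23 and 3 reads in AG 2 and AG 3, against 0 in GC. Mir206 had 3 reads in MG 4, against at most 1 in GC.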

How the results depend on the processing

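Under 81 settings, 27 for each pair of groups, no muscle gene of the 8 had an adjusted p under 0.05, and under 78 settings no gene of the other muscle lists did. The count of muscle genes past the unadjusted criterion in MG against AG was 2. It was 1 with total counts and no scaling, 1 with DESeq2, 0 with limma on log2(RPKM + 1), 0 with the filter filterByExpr, which left only Ttn to test, 0 with the replicate block, and 1 to 2 with each library left out (1 without AG 1, MG 1, MG 4 or MG 5). In MG against GC it was 0, and it was 1 (Myh1) without scaling, 1 with every gene of at least 1 read, and 0 to 1 with each library left out (1 without MG 3, MG 4, MG 6, GC 1 or GC 3). Over all genes this criterion passed 819, 856 and 766 genes in MG against AG, MG against GC and AG against GC, but 142, 142 and 131 by edgeR's exact test, 124, 124 and 123 by DESeq2 and 19, 25 and 67 by limma, and the cause was not tested.

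Of 392 log2 fold changes of muscle genes under alternatives, 380 kept their direction and side of the threshold and 12 changed sign, none of them past a threshold. Acta1 in MG against AG (-0.32) was 0.51 without scaling, 0.012 by limma and from -0.49 (without MG 2) to 0.0097 (without AG 2) with each library left out. Ttn in AG against GC (-0.04) was 0.081 with filterByExpr, 0.037 by DESeq2 and 0.18 with the replicate block. With each library left out it ran from -0.92 (without AG 2) to 0.83 (without GC 2), and in the same pair Myh4 ran from -0.22 (without AG 1) to 1.41, Acta1 from -1.33 to 0.042 (without GC 2) and Ckm from -1.02 (without AG 1) to 1.51. The causes were not tested. Under alternatives added after the values were seen, Alb kept its direction and side of the threshold in 64 of 78. In MG against AG (1.39) it ran from -0.98 (without MG 6) to 4.38 (without AG 6) with each library left out. It passed the adjusted threshold in this pair only without AG 6 (adjusted p = 1.97e-06 by edgeR). In AG against GC (2.63) it was -0.25 with the replicate block and ran from -0.22 (without AG 6) to 3.01. It missed the adjusted threshold there, but passed it with RLE size factors, with only the 2 groups in the fit, and without AG 2, AG 3, AG 5 or MG 6. In MG against GC (4.02) it did not pass the adjusted threshold without MG 6 (1.77), with the replicate block (1.43), with filterByExpr (4.27) or by limma (1.19), and DESeq2 gave no adjusted p. All 49 alternative ratios of the summed level lay within the spread between libraries, although their direction changed with the scaling. The replicate block is a term for the replicate number of the titles. In 11 of 32 comparisons of a library with another group, the highest correlation was with its own number. Each comparison had 5 or 6 libraries to choose from, and whether the numbers stand for a pairing was not tested. Depth limits every value: most rest on fewer than 10 reads per library.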

Other observations

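Genes of muscle atrophy and growth, which are not specific to muscle, had 176 reads, and 12 of 14 had a read (Mstn and Fst had none). The list was led by Foxo3 (67 reads), a transcription factor of the atrophy program, Eif4ebp1 (20), Gadd45a (20) and Igf1 (16). Its summed level was 113 ± 56.1 CPM in MG (n = 6), 35.5 ± 16.8 in AG (n = 6) and 63.0 ± 37.8 in GC (n = 5). Marker sums of other cells were likewise higher in MG than in AG by CPM, with means of 3194 against 1135 for platelets, 279 against 90.9 for smooth muscle and 216 against 99.9 for leukocytes. Most reads of the smooth muscle sum were of Myl9. None of the 8 tested genes passed the adjusted threshold in any pair by edgeR's quasi-likelihood test. Their median log2 fold change was 1.42 in MG against AG, with 7 of 8 above 0, 0.68 in MG against GC and -0.93 in AG against GC, beside 0.35, 0.22 and -0.06 over all tested genes. It was 1.04, 0.68 and -0.25 with genes at 0 reads in a group set to the limit of 3 reads and those with at most 3 reads in the other group left out. Past the unadjusted criterion, and named after their values were seen, were Foxo1 in MG against AG (11 reads in MG, 7 of them in MG 1, against 0), the ubiquitin ligase gene Fbxo32 in the same pair (8 reads, 5 of them in MG 4, against 0) and Gadd45a in MG against GC (16 reads against 1). These were 2 of the 8 in the first pair and 1 of the 8 in the second, where 9.87% and 9.79% of all tested genes passed it higher in MG. The first count was 4 without AG 2, and the second was 3 without GC 2 and 2 without GC 5. Foxo3 was at 0.02 in MG against AG. Without AG 2 the median was 2.62 in MG against AG, and without GC 2 it was 0 in AG against GC. In MG against GC it ran from 0.36 (without GC 1 or MG 2) to 1.04 (without GC 4) with each library left out. The median of 6 smooth muscle markers was 0.93 in MG against AG (Acta2 and Tagln past the unadjusted criterion) and 1.28 in MG against GC (Myh11 past it), and that of 13 liver markers was 0.72 and 2.02. The liver median in MG against AG was -0.89 without MG 6, with 2 of 13 above 0, and 2.53 without AG 6. Without MG 4 the smooth muscle median was 0.24 in MG against AG. The median of the platelet markers was 0.33 and -0.34 in these pairs, and in the first it lay on either side of that of all tested genes with 1 library left out (0.87 against 0.44 without AG 2, 0.23 against 0.54 without AG 6). That of the red cell markers was -1.17 and -0.45. The part of these markers in the values of the atrophy list was not tested.

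Of 5 mouse counterparts of muscle genes that the study followed in human cfRNA, 3 had a read, Sh3bgrl (76), Xirp1 (9) and Ryr1 (7), while Igfn1 and Map3k7cl had none. All 3 tested missed both thresholds in each pair, with log2 fold changes of 0.94, 1.83 and 0.02 in MG against AG for Sh3bgrl, Xirp1 and Ryr1, and the 7 Xirp1 reads of MG were all in MG 1. Of paralogs of the muscle myosins and actins, the developmental Myh3 was at 0, as was Myh13, and Myh8 had 5 reads in 5 libraries. The non-muscle genes Actb (2259 reads), Myh9 (593), Actg1 (493) and Myh10 (15) led the list. None of the 6 tested passed either threshold in any pair. Of liver markers 13 of 13 had a read (1204 reads, Alb leading with 527). In MG against GC all 13 were above 0 and 8 passed the unadjusted criterion, where 9.79% of all tested genes passed it higher in MG, and the albumin gene Alb alone passed the adjusted threshold (log2 fold change 4.02, SE 0.72, adjusted p = 6.62e-05 by edgeR). MG 6 held 533 of the 759 liver reads of MG. Without MG 6, a setting chosen after the values were seen, 2 of 13 passed the unadjusted criterion and 8 were above 0, the median fell from 2.02 to 0.24, and Alb stood at 1.77 (adjusted p = 0.365 by edgeR). In AG 257 of 334 liver reads were in AG 6. Spearman's rho between Ttn and the liver sum in CPM was 0.14 over the 17 libraries. Of leukocyte markers 6 of 7 (409, led by Lyz2 with 356; Cd3e at 0) had a read, as had 5 of 8 adipose markers (60, led by Fabp4 with 37; Adipoq, Cidec and Lep at 0).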
